A study of Mus musculus with 6 samples.

Results

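The genes described here encode proteins that bring long-chain fatty acids across the cell membrane or bind them and their acyl-CoA esters inside the cell. They are Cd36, Slc27a1, Slc27a2, Slc27a3, Slc27a4, Mfsd2a, Fabp3, Fabp4, Fabp5 and Dbi, taken by gene symbol from the counts of 2-cell mouse embryos. All 10 were among the 48967 genes listed, 30967 of which had at least 1 count. The filter on low counts kept 9 of the 10 genes, which were tested in a table of 16020 genes, and removed Fabp4.

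The study removed lipid droplets from zygotes and sequenced the RNA of the embryos at the 2-cell stage, so that the comparison asks which transcripts differ after the lipid store has been taken away. All embryos were wild-type and came from F1 (C57Bl/10 X CBA/H) females mated with F1 males. They were kept in KSOM without fatty acids from 0.5 dpc to 2.0 dpc. The 3 control libraries came from zygotes that were cultured in vitro. The 3 delipidated libraries came from zygotes that were treated with cytochalasin B, centrifuged, exposed to a hyperosmotic solution and opened with a laser so that the droplets could be drawn out. Each library was a pool of 3 embryos, and zygotes from several females had been mixed before they were allotted, so that the p-values measure the spread between pools and not between litters. The sources used here do not describe a sham treatment of the controls, and the effects of the manipulation and of the loss of lipid cannot be told apart.

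Long-chain fatty acids reach cells bound to albumin or are released from lipoproteins by lipases, and they enter by diffusion through the membrane and with the help of membrane proteins. CD36 binds fatty acids at the surface, and the fatty acid transport proteins of the Slc27a family couple their uptake to esterification with coenzyme A. In the cytoplasm the small fatty acid-binding proteins carry fatty acids between membranes, and the acyl-CoA-binding protein encoded by Dbi holds acyl-CoA esters for synthesis of glycerolipids or for oxidation. Oocytes and early embryos of the mouse keep triacylglycerol in lipid droplets, and the medium used here supplied no fatty acids from outside.

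Counts assigned to genes were 12164963, 16165958 and 12980787 in control replicates 1, 2 and 3. They were 20059460, 16332103 and 14683741 in delipidated replicates 1, 2 and 3. Delipidated replicate 1 had the highest total but the fewest genes with a count, 17091, against 19408 and 20158 in the other delipidated libraries and 20582 to 22855 in the controls. Levels are given as CPM, counts per 1000000 counts of a library's effective size. The correlations of log CPM of delipidated replicate 1 with the other libraries, across the genes tested, lay between 0.838 and 0.869. Those among the other 5 libraries lay between 0.866 and 0.903. A count of 3, the mean up to which a count of 0 may still be observed, corresponds to 0.148 to 0.253 CPM in these libraries. A read that crosses exonic parts adds a count to each and amplified reads are not independent molecules, so that these values lie below the true limits by an amount not measured here. In a pool, fewer blastomeres with a transcript and less of it per blastomere cannot be told apart.

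None of the 9 genes tested differed between delipidated and control embryos past the threshold, an adjusted p under 0.05 with a log2 fold change beyond 1 in size in edgeR's quasi-likelihood test. By this rule 0% of the 16020 genes were called. At an unadjusted p under 0.05, edgeR gave 463 genes, 2.89% of those tested, 184 higher and 279 lower in delipidated embryos, and none of the 9. DESeq2, with its own default filtering in place of the filter on low counts, called 9 genes higher and 40 lower. The limma-voom fit called 0, and no gene of the 10 was among the calls. The lowest unadjusted p among the 9 genes was 0.326 in edgeR, and the adjusted p was 1.00 for each of them. Fold changes were above 0 for 4 genes and below 0 for 5, and the median over the 9, −0.08 on the log2 scale, stood beside −0.000726 over all genes tested. For 8 of the 9 genes the libraries of both groups overlapped. Slc27a2 was higher in every delipidated library than in every control, a separation in this direction that 3.81% of all genes tested showed, and 5.05% were separated in the opposite direction.

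**Figure D1:**
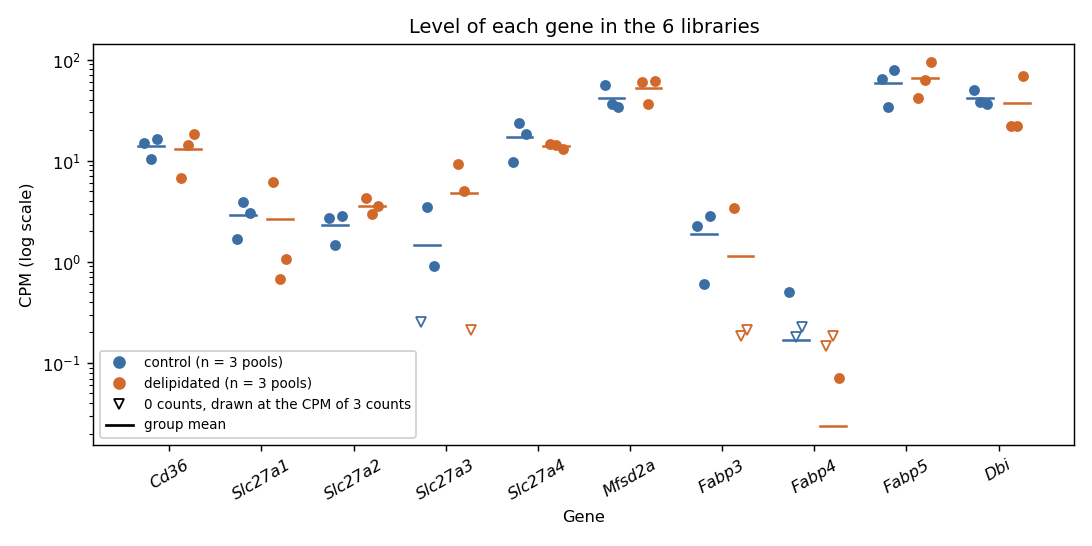
CPM of each of the 10 genes (log axis) in the 3 control and the 3 delipidated pools, with the group mean as a line and libraries at 0 counts drawn as open triangles at the value that 3 counts would have. Fabp5, Mfsd2a and Dbi lie highest, Fabp4 was counted in 2 libraries, and only for Slc27a2 do the groups not overlap.

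The precision of these comparisons differed widely between the genes. The standard error of the log2 fold change ran from 0.33 for Mfsd2a to 1.79 for Fabp3, with a median of 0.50. For Mfsd2a the 95% interval reached from 0.757-fold to 2.09-fold, and for Fabp5 from 0.628-fold to 2.00-fold. The Cd36 interval reached from 0.442-fold to 2.01-fold, and that of Dbi from 0.452-fold to 1.79-fold. For Slc27a3 it reached from 0.268-fold to 38.1-fold, so that large differences in either direction lie within it.

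**Figure D2:**
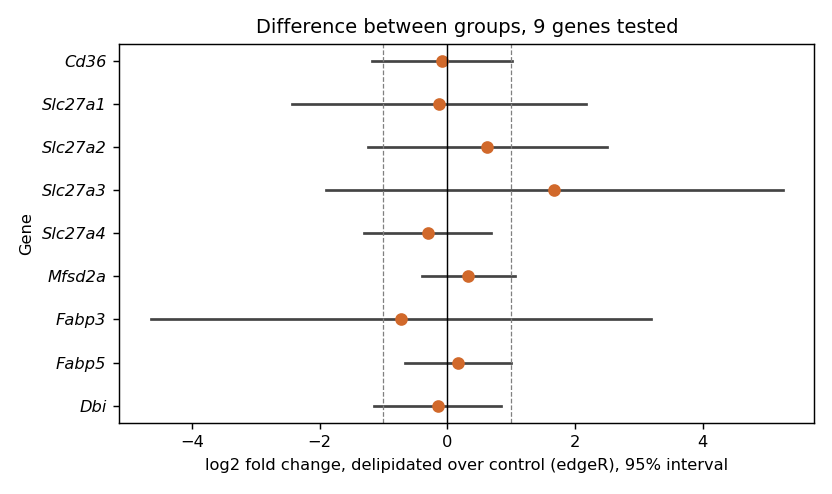
Log2 fold change of delipidated over control embryos from edgeR (points) with its 95% interval (lines) for the 9 genes tested, and dashed lines at −1 and 1. Every interval includes 0, and those of Fabp3 and Slc27a3 are the widest.

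Levels were compared between genes as CPM per kb of exonic length, since longer genes collect more counts. Over all exonic parts the mean of the 6 libraries was 27.9 CPM per kb for Dbi, 20.98 for Mfsd2a and 17.6 for Fabp5. These means exceeded those of 87.3%, 83.4% and 80.8% of the genes tested. Their ranges over the libraries overlapped, 15.3 to 48.4 for Dbi, 15.1 to 27.4 for Mfsd2a and 9.58 to 26.4 for Fabp5. On this scale Dbi was above Mfsd2a in the controls and in delipidated replicate 3, and below it in delipidated replicates 1 and 2. Cd36 at 3.76 and Slc27a4 at 3.54 CPM per kb stood near the middle of all genes tested, above 51.5% and 50.5% of them. Fabp3 (1.84), Slc27a3 (1.21), Slc27a2 (0.785) and Slc27a1 (0.473) lay lower, and Fabp4 was at 0.0214 CPM per kb, under every gene tested. Annotated introns kept in minor transcripts count as exonic parts and make up much of the length of some genes, 72.3% for Fabp5 together with other parts outside protein-coding transcripts. Over coding parts alone, a scale chosen after the data had been seen, Fabp5 was first with 87.0 CPM per kb, followed by Dbi with 61.5 and Mfsd2a with 21.9. Fabp5 was above Dbi in 5 of the 6 libraries and their ranges overlapped, whereas the lowest library of Dbi (31.5) was above the highest of Mfsd2a (28.8), and the lowest of Mfsd2a (15.5) above the highest of Cd36 (8.89). Below Cd36 the ranges of each pair of neighbours overlapped. Reads that cross a boundary between exonic parts were counted in each part, which raises genes made of many short exons when parts are summed. On the longest exonic part of each gene alone every gene changed its place. Mfsd2a was first with 8.79 CPM per kb, followed by Fabp3 with 1.28, Slc27a4 with 1.19 and Dbi with 0.540. The longest part of Fabp3 had 23 counts in control replicate 1, 5 in control replicate 2 and 0 elsewhere. The place of Fabp3 on this scale thus rests on control replicate 1. Fabp5 was sixth on that scale with 0.193 and Cd36 eighth with 0.103, their longest parts being the first intron and a part of the 3′ UTR.

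Cd36 encodes the scavenger receptor CD36, a membrane glycoprotein that binds long-chain fatty acids and oxidised lipoproteins and is abundant in fat, muscle, macrophages and capillary endothelium. The gene (ENSMUSG00000002944) lies on the minus strand of chr5:17781690-17888801 in mm10. Its level was 14.9, 10.3 and 16.3 CPM in control replicates 1, 2 and 3, and 6.72, 14.1 and 18.4 CPM in delipidated replicates 1, 2 and 3. Delipidated replicate 1 was the lowest and delipidated replicate 3 the highest of the 6, with the controls between them. The means were 13.9 ± 3.14 and 13.1 ± 5.92 CPM (SD, n = 3 pools each), and edgeR gave a log2 fold change of −0.08 (SE 0.50), which turned to 0.23 without delipidated replicate 1 and to 0.05 without control replicate 3.

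The counts of Cd36 fell mainly on the upstream part of its coding sequence. Of 1190 counts over the 6 libraries, 930 were on 11 parts from chr5:17796996 to 17829549, which hold the exon with the start codon and the coding exons after it, and which had between 110 and 192 counts in each library. The 4 coding exons that follow had 134 counts, absent from control replicate 3 and delipidated replicate 1, and the last exon with the 3′ UTR had 8 counts on 1660 bases, all in control replicate 3. The most upstream first exon (chr5:17888711-17888801) was counted in 5 of the 6 libraries, with 110 counts, while another annotated first exon (chr5:17849657-17849792) had 0 counts in all 6.

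The Slc27a family encodes fatty acid transport proteins, membrane proteins with acyl-CoA synthetase activity. FATP1 (Slc27a1) is known from muscle and fat, FATP2 (Slc27a2) from liver and kidney, where it activates very long-chain fatty acids in peroxisomes and the endoplasmic reticulum, and FATP4 (Slc27a4) from intestine and skin. In CPM, which is not corrected for length, Slc27a4 was the highest of the 4 listed members in every library. It took between 42.8% and 74.0% of their summed CPM. Per kb of exonic length, Slc27a3 (3.61) was above Slc27a4 (3.33) in delipidated replicate 1. The sum of the 4 was 24.0 ± 9.29 CPM in controls and 25.0 ± 8.59 CPM in delipidated embryos (SD, n = 3 pools each), a difference smaller than the spread.

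Slc27a4 (ENSMUSG00000059316, plus strand of chr2:29802634-29817522) had 9.79, 23.8 and 18.3 CPM in the controls and 14.7, 14.2 and 13.1 CPM in the delipidated libraries. The delipidated libraries stood close together, inside the range of the controls. The means were 17.3 ± 7.05 and 14.0 ± 0.845 CPM, with a log2 fold change of −0.31 (SE 0.45) in edgeR. The sign depended on the counting, since the last exon alone, the longest part and the one with most counts, gave 0.40 and 0.36 where every gene was counted on its longest or its most counted part. All 15 parts of the gene had counts, 9 of them in all 6 libraries.

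Slc27a2 (ENSMUSG00000027359, plus strand of chr2:126552407-126588243) was the gene whose groups were separate. It had 2.70, 1.45 and 2.81 CPM in the controls, from 32, 24 and 37 counts, and 4.25, 2.95 and 3.53 CPM in the delipidated libraries, from 86, 48 and 50 counts. The closest libraries of the groups, control replicate 3 and delipidated replicate 2, were 2.81 and 2.95 CPM. The means were 2.32 ± 0.755 and 3.57 ± 0.650 CPM, the two-sided exact permutation p was 0.1, the smallest that 3 against 3 pools can give, and edgeR gave a log2 fold change of 0.62 (SE 0.85, unadjusted p = 0.480). Of its 277 counts, 79.1% were on the last exon (chr2:126587760-126588243), which is 12.9% of the exonic length. All parts before the last exon had 0 counts in control replicates 1 and 2 and in delipidated replicate 1, 19 counts in control replicate 3, and 3 and 36 counts in delipidated replicates 2 and 3. In exon 1, which had 0 counts in all 6, 31.6% of the stretches of 50 bases overlap a transcript annotated on the opposite strand, and whether counting used the strand is not given in the sources used here, so that the level of Slc27a2 carries that limit. On the last exon alone the counts were 32, 24 and 18 in the controls and 86, 45 and 14 in the delipidated libraries, where delipidated replicate 3 was the lowest of all.

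Slc27a1 and Slc27a3 were unevenly counted between libraries, and neither had an exonic part with counts in all 6. Slc27a1 (ENSMUSG00000031808, plus strand of chr8:71568882-71587302) had 1.69, 3.93 and 3.04 CPM in the controls and 6.17, 0.676 and 1.06 CPM in the delipidated libraries. Delipidated replicate 1 was the highest of all and the other delipidated libraries were the lowest. Its 125 counts fell on 5 of 34 parts, 78 of them on a neighbouring pair of coding exons, whereas over the 6 libraries together 20 parts had counts. The log2 fold change was −0.13 (SE 1.05) in edgeR and −1.73 without delipidated replicate 1. Slc27a3 (ENSMUSG00000027932, minus strand of chr3:90385239-90389938) had 0, 3.51 and 0.912 CPM in the controls and 9.28, 4.98 and 0 CPM in the delipidated libraries. Each group held a library at 0, where 3 counts would be 0.253 CPM in control replicate 1 and 0.212 CPM in delipidated replicate 3, and the log2 fold change was 1.68 (SE 1.63). It was 3.35 without control replicate 2 and 0.75 without delipidated replicate 1.

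Mfsd2a encodes a sodium-dependent carrier of lysophosphatidylcholine, which brings docosahexaenoic acid into brain and eye across their barriers. It was the most evenly covered of the 10 genes, with 14 of its 18 exonic parts counted in all 6 libraries. The gene (ENSMUSG00000028655, minus strand of chr4:122946850-122961188) had 55.5, 36.0 and 34.0 CPM in the controls. The delipidated libraries had 59.8, 36.4 and 61.6 CPM. In the delipidated group replicates 1 and 3 were above every control, and replicate 2 lay among the controls. The means were 41.8 ± 11.9 and 52.6 ± 14.1 CPM (SD, n = 3 pools each), a log2 fold change of 0.33 (SE 0.33, unadjusted p = 0.343) in edgeR. Counted on its longest part alone, the last exon, the log2 fold change was −0.42.

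The fatty acid-binding proteins are small cytoplasmic proteins with a barrel-shaped pocket for a single fatty acid. FABP3 is the form of heart and muscle, FABP4 that of adipocytes and macrophages, and FABP5 that of skin, with a wide presence in other tissues. Among these 3, Fabp5 made up 92.5% to 100% of the summed CPM in every library. The sum was 61.2 ± 24.1 CPM in controls and 67.4 ± 24.8 CPM in delipidated embryos (SD, n = 3 pools each).

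Fabp5 (ENSMUSG00000027533, plus strand of chr3:10012548-10016607) had 64.1, 34.2 and 79.2 CPM in the controls and 41.8, 62.8 and 94.2 CPM in the delipidated libraries. The groups were interleaved, with control replicate 2 lowest and delipidated replicate 3 highest. The means were 59.2 ± 22.9 and 66.3 ± 26.3 CPM, a log2 fold change of 0.16 (SE 0.38) that was −0.11 without control replicate 2 and −0.18 without delipidated replicate 3. Spliced exons carried nearly all counts. The 2252 bases of the first intron, annotated as exonic in a minor transcript, had 44 of 5570 counts. Exon 2 (chr3:10014971-10015143) had 2129 counts, exon 3 (chr3:10015472-10015573) had 1853 and the first exon 1324. The last exon, with 541 bases the longest of the spliced exons, had 218 counts, and it was low in each of the 6 libraries, at 20 to 58 counts.

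The exons of Fabp5 with most counts have near copies elsewhere in the genome. Of the stretches of 50 bases inside exon 2, 59.7% occur in an annotated transcript of another gene, and 58.5% of those inside exon 3, against 17.2% in the first exon and 1.0% in the last. The copies are Gm6166, Gm14328, Fabp5l2, Gm13998 and Gm6100, which had 72, 4, 0, 5 and 0 counts over the 6 libraries. Per the study's methods a read was counted if it was unique, so that reads with equal matches in Fabp5 and a copy do not appear under either gene. How many such reads there were was not analysed here, and the level of Fabp5 on these exons carries that limit.

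Fabp3 (ENSMUSG00000028773, plus strand of chr4:130308595-130315463) had 2.28, 0.605 and 2.81 CPM in the controls and 3.41, 0 and 0 CPM in the delipidated libraries. A single delipidated library held all the counts of its group, and it was the highest of the 6. The means were 1.90 ± 1.15 and 1.14 ± 1.97 CPM, with a log2 fold change of −0.72 (SE 1.79). Without delipidated replicate 1 both remaining delipidated libraries were at 0, and the unadjusted p was 0.00963 in edgeR (adjusted p = 1.00, with adjusted values of 0.947 to 1.00 over all settings tried). All 69 counts of delipidated replicate 1 and 28 of the 37 counts of control replicate 3 lay on exon 2 (chr4:130312291-130312463). Every stretch of 50 bases in that exon is also found in an annotated transcript of another gene. Over the whole of Fabp3, 226 of 289 shared stretches are in the pseudogene Fabp3-ps1, itself listed with 0 counts. Another 32 are in Zcchc17, which had 7007 counts over the 6 libraries, and 31 in Gm10570, which had 0. The other 3 exons had 26, 10 and 9 counts in the controls and 0 in each delipidated library. Of these 45 counts, 29 were on exons that overlap transcripts annotated on the opposite strand, and whether counting used the strand is not given in the sources used here, so that reads of Fabp3 and of those transcripts cannot be told apart on these exons. Reads of exon 2 with an equal match in the pseudogene do not appear under either gene, and the level of Fabp3 is uncertain in both groups.

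Fabp4 (ENSMUSG00000062515, minus strand of chr3:10204088-10208576) had 6 counts in control replicate 1 and 1 count in delipidated replicate 3. The other 4 libraries had 0 counts, and 3 counts there would be 0.148 to 0.228 CPM. The 6 counts of control replicate 1 were on the first exon and the intron after it, and exons 2 and 3 had 0 counts in all libraries.

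The second exons of the 3 genes are of equal length, 173 coding bases, and are given here because this exon had the most counts of Fabp5 and of Fabp3, 2129 and 98 over the 6 libraries, with 0 for Fabp4. All but 1 of the 98 came from control replicate 3 and delipidated replicate 1, and with the shared stretches described above the counts of the 3 genes on this exon are not compared here. Sequences are from the GENCODE vM21 transcripts (GRCm38, the assembly of mm10), read 5′ to 3′ along the transcript, with capitals at the 83 positions where all 3 genes have the same base. The Fabp4 exon lies at chr3:10205950-10206122.
Fabp5: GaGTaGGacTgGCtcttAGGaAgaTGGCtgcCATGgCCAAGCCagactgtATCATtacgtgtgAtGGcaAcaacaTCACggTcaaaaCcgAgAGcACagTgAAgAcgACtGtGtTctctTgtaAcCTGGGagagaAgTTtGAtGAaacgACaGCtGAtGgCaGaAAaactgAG
Fabp3: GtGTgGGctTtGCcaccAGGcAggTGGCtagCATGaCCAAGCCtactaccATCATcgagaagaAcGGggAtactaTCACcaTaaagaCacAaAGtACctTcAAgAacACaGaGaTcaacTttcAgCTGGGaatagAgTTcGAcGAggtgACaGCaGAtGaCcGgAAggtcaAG
Fabp4: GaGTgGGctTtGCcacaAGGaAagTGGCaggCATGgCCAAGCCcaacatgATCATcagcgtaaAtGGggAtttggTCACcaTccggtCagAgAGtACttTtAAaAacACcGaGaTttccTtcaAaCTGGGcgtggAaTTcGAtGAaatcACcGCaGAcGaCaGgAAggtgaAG

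Fabp3 and Fabp4 were identical at 70.5% of these positions, Fabp4 and Fabp5 at 59.5% and Fabp3 and Fabp5 at 57.2%. The longest run of identical bases in any pair was 14, and no pair of the 3 shared a stretch of 50 bases here.

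Fabp5 and Fabp4 lie in a group of related genes on chromosome 3. Between and beside them are Pmp2 (chr3:10179851-10183929), Fabp9 (chr3:10193621-10197283) and Fabp12 (chr3:10244209-10301183), the first a myelin protein and the second a testis protein, named here for their position after their values had been seen. Pmp2 had 0 counts in all 6 libraries, Fabp9 had 4 and Fabp12 had 1, beside 7 for Fabp4 and 5570 for Fabp5. Of the 5 genes, Fabp5 lies at the edge of the group and on the plus strand, and the other 4 are on the minus strand.

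Dbi encodes the acyl-CoA-binding protein, also known as diazepam-binding inhibitor, which holds long-chain acyl-CoA esters in the cytoplasm. The gene (ENSMUSG00000026385, minus strand of chr1:120113280-120121078) had 50.3, 38.3 and 36.6 CPM in the controls. The delipidated libraries had 22.2, 21.8 and 68.8 CPM. Delipidated replicates 1 and 2 were below every control and replicate 3 was above every control. The means were 41.8 ± 7.44 and 37.6 ± 27.0 CPM (SD, n = 3 pools each), with a log2 fold change of −0.15 (SE 0.45, unadjusted p = 0.743) in edgeR. Without delipidated replicate 3 the log2 fold change was −0.93 with an unadjusted p of 0.0298 (adjusted p = 0.863, the lowest over all settings tried, the highest being 1.00), and without delipidated replicate 1 or 2 it was 0.12. Parts that overlap the coding sequence held 86.7% of the counts. Exon 2 (chr1:120119895-120120012) had the most counts, 959. Of its stretches of 50 bases, 20.3% occur in an annotated transcript of Gm12222, which had 2 counts over the 6 libraries. Reads with equal matches in both genes do not appear under either, and the level of Dbi on this exon carries that limit. The last exon beyond its coding part (chr1:120113280-120113399) was counted in control replicates 1 and 2, with 26 and 39 counts, and had 0 counts in the other 4 libraries, although the coding part of the same exon had 84 to 270 counts in each library. An alternative first exon (chr1:120120762-120120937) had 18 counts in control replicate 2 and 0 elsewhere.

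**Figure D3:**
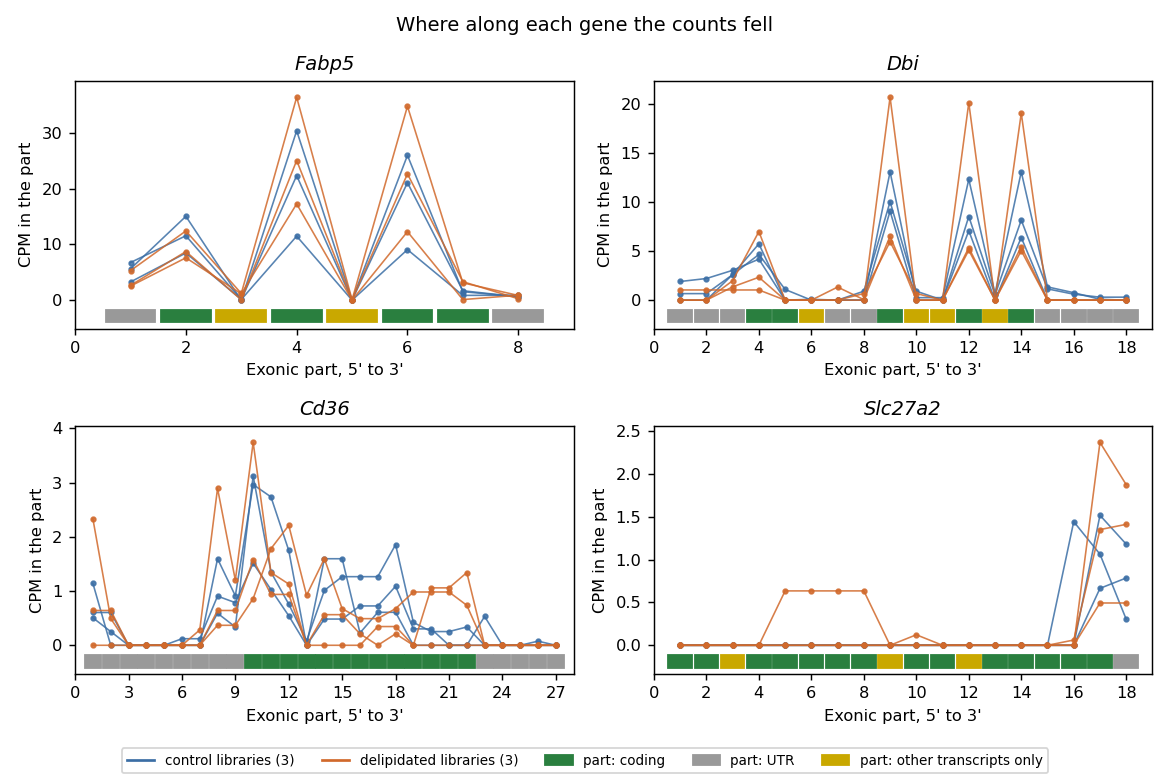
CPM in each exonic part of Fabp5, Dbi, Cd36 and Slc27a2, from 5′ to 3′, with a line per library and a bar under each part for its class (coding, UTR, or in other transcripts only). Counts of Fabp5 and Dbi peak on the same coding exons in all 6 libraries, those of Cd36 lie toward the 5′ end, and those of Slc27a2 lie mostly on the last exon in 4 libraries, mostly before it in delipidated replicate 3, and evenly on both in control replicate 3.

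The 10 genes together made up 183 ± 26.8 CPM in controls and 196 ± 56.6 CPM in delipidated embryos (SD, n = 3 pools each). Fabp5, Mfsd2a and Dbi were the main contributors in CPM, with medians over the 6 libraries of 33.9%, 23.6% and 21.9% of the sum. Slc27a4 and Cd36 followed with medians of 8.86% and 7.23%.

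Other genes of fatty acid uptake and binding were taken from 7 lists with 39 genes, 4 of them without a count in any library. Enough counts for a test were present for 22 genes, and edgeR called none of these. Fold changes were above 0 for 10 and below 0 for 12, and the median on the log2 scale was −0.04 beside −0.000726 over all genes tested. Got2 and Acsl1 were lower in every delipidated library than in every control, and no gene of the lists was separated in the opposite direction, beside 5.05% and 3.81% of all genes tested. Acsl1 was the only one of the 22 with an unadjusted p under 0.05, which 2.89% of all genes tested had.

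Among the remaining fatty acid transport proteins, the liver bile acid-CoA ligase Slc27a5 had 1.54 CPM per kb over the 6 libraries and Slc27a6 had 0.0755. The Slc27a5 value rests largely on delipidated replicate 1, which had 235 counts against at most 68 in any other library. None of the 7 remaining fatty acid-binding proteins passed the filter on low counts. The highest of them were Fabp7, the brain form, with 0.819 CPM per kb and Fabp9 with 0.169. Fabp7 had 56 counts in control replicate 2, 38 and 6 in delipidated replicates 2 and 3, and 0 elsewhere. Fabp9 had 2 counts in control replicate 1, 2 in delipidated replicate 3 and 0 elsewhere. Fabp2 and Pmp2 had 0 counts throughout. By contrast, all 7 remaining acyl-CoA-binding domain genes passed, 1 with a fold change above 0 and 6 below, at a median of −0.12. Each of these log2 fold changes was smaller in size than its standard error. Over all genes tested, 8004 were above 0 and 8016 below. Acbd5, a peroxisomal membrane protein that tethers peroxisomes to the endoplasmic reticulum, was the highest of the 7 with 58.9 CPM per kb. The Golgi protein Acbd3 followed with 26.3. Acbd5 stood at 213 to 292 CPM in the controls and at 225 to 245 CPM in the delipidated libraries.

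Of 8 membrane partners of uptake, 6 passed the filter, 3 with a fold change in each direction. Zdhhc5, a palmitoyltransferase that acts on CD36, had 56.6 CPM per kb, with 269 to 313 CPM in the controls and 271 to 293 CPM in the delipidated libraries. Got2, the mitochondrial aspartate aminotransferase that is also described as a fatty acid-binding protein of the plasma membrane, had 3.44 CPM per kb. Its values were 16.5, 29.6 and 16.7 CPM in the controls and 13.7, 13.2 and 9.67 CPM in the delipidated libraries, with a log2 fold change of −0.78 (SE 0.44) in edgeR that was −0.44 without control replicate 2 and 0.10 on its longest part alone. Cav2, a caveolin, had 0 counts in all 6 libraries. Among 6 genes of extracellular release 4 passed the filter, 2 with a fold change in each direction, and lipoprotein lipase (Lpl) was the highest with 1.50 CPM per kb and endothelial lipase (Lipg) next with 0.920. That place rests on control replicate 3, which had 186 counts of Lipg against at most 63 in any other library. Gpihbp1, which anchors lipoprotein lipase in capillaries, had 0 counts. The 4 genes with 0 counts in every library, Fabp2, Pmp2, Cav2 and Gpihbp1, are named after their values had been seen.

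Of 5 long-chain acyl-CoA synthetases, which trap fatty acids in the cell as acyl-CoA, 4 passed the filter and 3 of these had a fold change above 0. Acsl3, an isoform of lipid droplets and the endoplasmic reticulum, had 21.8 CPM per kb and Acsl4 had 10.6. Acsl1 had 69.9, 45.5 and 55.6 CPM in the controls and 18.1, 18.6 and 38.9 CPM in the delipidated libraries. The highest delipidated library, replicate 3, was below the lowest control, replicate 2. The log2 fold change was −1.18 (SE 0.38, unadjusted p = 0.00991, adjusted p = 1.00) in edgeR, and the adjusted p ran from 0.257 to 1.00 over all settings tried, so that the threshold over all genes tested was not passed in any of them. None of the 4 free fatty acid receptors passed the filter, and the highest were Ffar3 with 0.158 and Ffar2 with 0.136 CPM per kb. Ffar2 was counted only in control replicate 1, with 12 counts, and in delipidated replicate 3, with 18, and its place rests on the latter.

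Markers were examined because Cd36 and Fabp4 are also abundant in endothelium, fat and macrophages, cells that embryo preparations do not aim to hold. All 6 genes of the 2-cell stage and all 8 of the oocyte were counted in every library. Their most abundant genes were Zfp352 with a mean of 89.3 CPM and Oosp1 with 463 CPM. The sum over the 2-cell genes was 250, 110 and 227 CPM in the controls and 135, 194 and 257 CPM in the delipidated libraries. Oocyte genes summed to 1312, 863 and 1211 CPM in the controls and to 1011, 1162 and 1483 CPM in the delipidated libraries.

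Most lists of other cell types were low, and the endothelial and oviduct sums were the exceptions. The adipocyte list summed to 0.988 to 9.77 CPM per library, its highest gene was Plin1 with a mean of 3.67 CPM, and Adipoq had 0 counts in all 6 libraries. Genes of macrophages and leukocytes summed to 0.346 to 8.86 CPM, led by Csf1r with 2.65 CPM. The endothelial list summed to 38.6 to 87.4 CPM, mainly from Pecam1 with a mean of 37.0 CPM and Tek with 15.3 CPM. Tek was the higher in delipidated replicate 3, and 4 of the 5 genes were counted in every library. Kdr and Cdh5 had means of 3.43 and 1.93 CPM, and Emcn was counted only in control replicate 2, with 20 counts. The oviduct list summed to 86.8 to 247 CPM, nearly all from Epcam with a mean of 145 CPM. Its other genes, Krt18, Ovgp1, Pax8 and Foxj1, had means of 7.56, 2.95, 0.467 and 0.116 CPM. Pax8 was counted only in control replicate 2 and delipidated replicate 3, and Foxj1 only in delipidated replicates 2 and 3. Cumulus and granulosa genes summed to 1.38 to 10.9 CPM, led by Tnfaip6 with 3.50 CPM, with Foxl2 and Ptx3 at 0 in every library.

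Stromal and erythroid genes had few counts, and apart from Pdgfra each of them was at 0 in at least 1 library. Stromal genes summed to 5.48, 9.98 and 6.08 CPM in the controls and to 1.93, 3.50 and 4.09 CPM in the delipidated libraries, with Pdgfra the highest at a mean of 2.48 CPM. Pdgfra overlapped between the groups, and Dcn was counted only in delipidated replicate 3. Erythroid genes summed to 1.52, 2.66 and 3.88 CPM in the controls and had 0 counts in the delipidated libraries. Hba-a1 led that list with 0.697 CPM but had 0 counts in control replicate 3, where Hba-a2 alone was counted, while Hbb-bs and Hbb-bt were at 0 in all 6. The part of these transcripts in the levels of Cd36, Fabp4 and Fabp3 was not tested.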

How the data were processed

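RNA of 6 pools of 2-cell embryos, 3 control and 3 delipidated, was sequenced by the authors after ribosomal RNA depletion with a stranded total RNA kit. Per the labels, the authors used bcl2fastq 2.20, Trimmomatic 0.36, STAR 2.5.2b and featureCounts with the genome build mm10. The deposited values are raw counts per exonic part, and a read that crosses several parts adds a count to each. The methods of the study state that only unique reads within exons were taken. The 425461 parts were summed here per gene. Of 33309 parts listed under several genes, 27968 were given to the only gene whose exons in GENCODE vM21 they overlap, and the rest, 2.49% to 2.57% of counts per library, were left out. None of the 10 genes has such parts. Gene symbols came from GENCODE vM21, which held 49384 of 49644 identifiers.

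Genes were filtered with filterByExpr (minimum count 10, minimum total 15), scaled by TMM and tested with the quasi-likelihood test of edgeR 4.0.16 in R 4.3.3, with Benjamini-Hochberg adjustment over 16020 genes. CPM was computed on TMM-scaled library sizes. Intervals at 95% used the moderated degrees of freedom, and exact permutation tests were two-sided (scipy 1.17.1, Python 3.11.15). Alternatives were DESeq2 1.42.0, limma-voom (limma 3.58.1), other scalings, filters and ways of counting, and leaving out each library. The scripts were tested on simulated data. Named were all 10 genes, the 2 highest genes per kb of each pathway list with every gene at an unadjusted p under 0.05, and the highest gene of each marker list with those at 0. Fabp2, Pmp2, Fabp9, Fabp12, Cav2, Gpihbp1, Tek, Dcn, Hba-a2 and the near copies were named after their values had been seen. So were Kdr, Cdh5, Emcn, Krt18, Ovgp1, Pax8, Foxj1, Zcchc17 and Gm10570. Genes and lists were chosen with earlier results of these data known.

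Near copies were sought as stretches of 50 bases shared with GENCODE vM21 transcripts of other genes on either strand.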

Additional observations from a re-analysis of the deposited data

How the results depend on the processing

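None of the 10 genes was called under any of the 18 other settings, and of 140 fold changes of the members under them 124 kept their sign. All genes together gave 0 calls except in edgeR with no filter on low counts and in DESeq2. Without that filter edgeR called 5 higher and 25 lower, from 30967 genes tested. DESeq2 was run without filterByExpr but with its own default filtering. It called 9 higher and 40 lower, from 19443 genes tested. With the part of most counts, the log2 fold change was 0.36 for Slc27a4 and 0.00113 for Dbi, and with the longest part it was 0.40 for Slc27a4, −0.42 for Mfsd2a and 0.10 for Got2. With coding parts alone, added after the data had been seen, it was 0.0232 for Slc27a1 and 0.00235 for Dbi. These signs differ from the reported ones, and the cause was not tested. Leaving out a library in turn changed the sign for 4 genes, with ranges of −0.41 to 0.23 for Cd36, −1.73 to 0.32 for Slc27a1, −0.18 to 0.43 for Fabp5 and −0.93 to 0.12 for Dbi. Among genes that kept their sign the ranges were 0.75 to 3.35 for Slc27a3, 0.38 to 0.78 for Slc27a2, 0.20 to 0.60 for Mfsd2a and −0.58 to −0.00512 for Slc27a4, and Fabp3 without delipidated replicate 1 was fitted against libraries at 0. Acsl1 stayed below 0 throughout, from −1.64 to −0.69, and Got2 lay between −0.92 and −0.44 with a library left out. Of 100 group means in CPM, 77 moved by less than 1 SD and 22 of the other 23 came from counting a single part per gene. The replicate numbers did not pair the libraries by design, since embryos were pooled and allotted at random. Deviations of equally numbered libraries correlated at −0.084, 0.070 and 0.043, and those of other pairs at −0.183 to 0.146. These deviations are from means of 3 libraries, so that they cannot show by themselves that pairing is absent. With the replicate number as a block 0 genes were called higher and 0 lower. In the order of levels per kb, all 10 genes changed place with the longest part and 5 with coding parts alone. Low counts limit Slc27a1, Slc27a2, Slc27a3, Fabp3 and Fabp4.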
